A study of Mus musculus with 4 samples.

Results

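The 39 genes described here mark cells other than T cells: 14 are B cell genes, 10 are MHC class II genes and 15 are myeloid genes. They were chosen by name, as genes against which a sort of thymocytes can be read, and all 39 were found by symbol among the 24421 listed genes. CD69+DP thymocytes were FACS-sorted from the thymus of adult C57BL/6 mice of 6 weeks, and their RNA was sequenced in 2 samples from control mice and 2 from Foxa1/2cKO mice. Both groups carried the floxed alleles Foxa1fl/fl and Foxa2fl/fl. Control mice had no CD4Cre transgene, and Foxa1/2cKO mice carried CD4Cre, in which the *Cd4* promoter drives the recombinase, so that deletion begins at the DP stage and other cells of the thymus keep the genes unless they express the transgene. The samples were sorted independently from different mice. A sort held 2 mice of each genotype, and which samples shared a sort is not given in the sources used here.

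DP thymocytes carry CD4 and CD8 together, rearrange their T cell receptor and are selected on peptides held by MHC molecules of thymic stromal cells. MHC class II molecules present peptides to CD4 T cells. They are made by B cells, dendritic cells, macrophages and thymic epithelial cells under the coactivator *Ciita*, and mouse T cells make little or none. The thymus holds resident B cells, dendritic cells and macrophages that engulf the many thymocytes that die during selection, so transcripts of these cells can enter a sorted sample. In bulk RNA, fewer cells of a type and less RNA per cell cannot be told apart.

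Levels are given in FPKM, the fragments on a gene divided by its length in kilobases and by a divisor for the library. Whole reads were recovered from the steps of the FPKM for all 16069 genes above 0. The libraries held from 10627127 to 14813650 reads on listed genes. The T cell identity of the sort was plain in the values: *Cd3e* was at 396, 396, 333 and 396 FPKM in control 1, control 2, Foxa1/2cKO 1 and Foxa1/2cKO 2, and *Cd69* was at 113, 103, 107 and 121 FPKM. *Foxa1* and *Foxa2* were listed at 0 in all 4 libraries, controls included, so their level is no check of genotype, and a count of 0 allows up to 3 reads per library, counting error only. Values below are given in this order of libraries.

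The 39 genes were present at levels from under 1 FPKM to those of *Cd74*, which reached 191 FPKM. None was at 0 in any library, and the reads behind a value ran from 1 to 3920. The filter of at least 1 FPKM in at least 2 libraries was passed by 34, and it was not passed by *Ebf1*, *Cr2*, *Vpreb3*, *Adgre1* and *Bst1*. No gene of the 39 differed between the genotypes by limma at an adjusted p of 0.05, where 1 of the 10776 genes tested did (0.00928%, and not a member). None of the 34 had an unadjusted p under 0.05 either, a level that 4.55% of all genes reached. What set the 39 genes apart was a difference within each genotype: 36 were higher in control 1 than in control 2 and also higher in Foxa1/2cKO 1 than in Foxa1/2cKO 2.

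**Figure D1:**
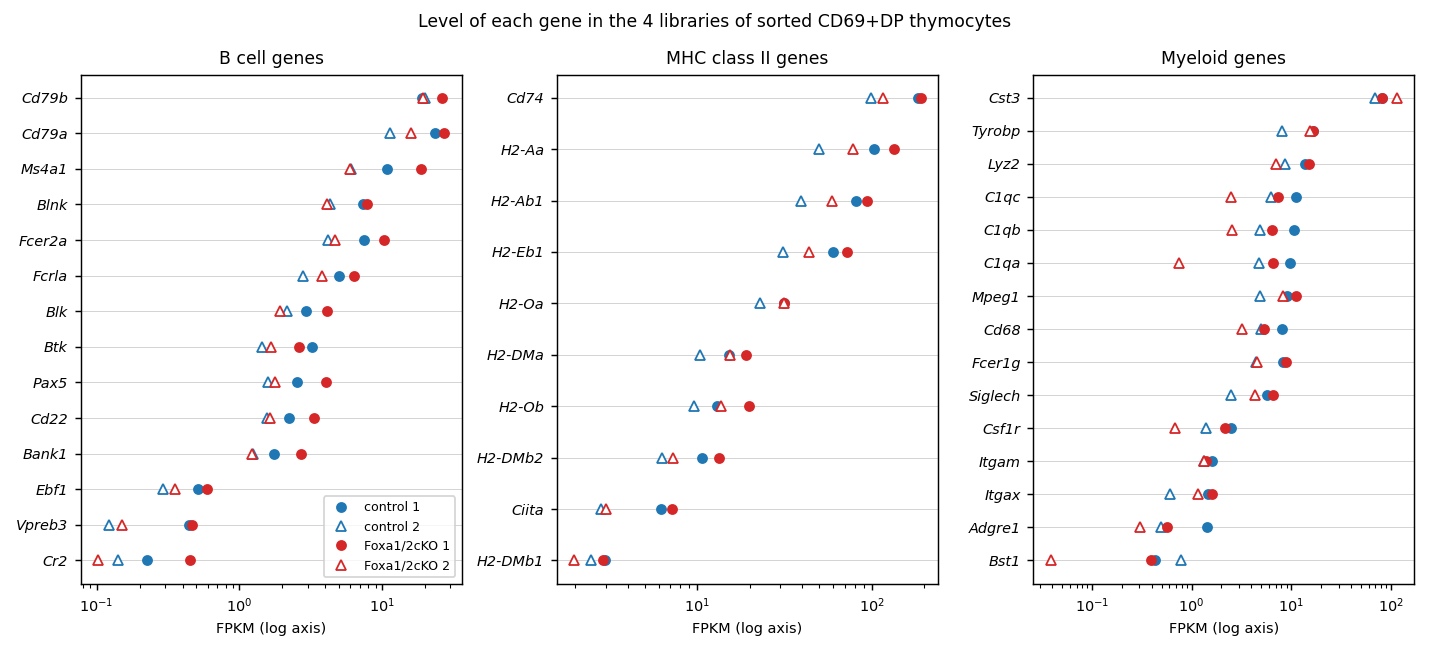
FPKM (log axis) of each of the 39 genes in the 4 libraries, with control in blue, Foxa1/2cKO in red, replicate 1 as filled circles and replicate 2 as open triangles. In 34 of the 39 genes both circles lie to the right of both triangles, whatever their colour, and C1qa, C1qb and C1qc are lowest in Foxa1/2cKO 2.

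The B cell genes were highest in Foxa1/2cKO 1. Their summed level was 87.2, 57.4, 115 and 62.6 FPKM, and 13 of the 14 had their highest value in that library. *Cd79a*, a signalling subunit of the B cell receptor, was at 23.6, 11.4, 27.2 and 15.8 FPKM. Both replicate 1 libraries were above both replicate 2 libraries, and the genotypes overlapped. *Ms4a1*, which encodes the surface protein CD20, was at 10.9, 6.02, 18.6 and 6.00 FPKM, from 337, 168, 413 and 137 reads. Its widest difference lay between the 2 Foxa1/2cKO libraries, at 3.10-fold (95% counting interval 2.55 to 3.79).

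*Cd79b*, which pairs with *Cd79a*, was the exception among the B cell genes. It was at 19.1, 20.1, 26.4 and 19.3 FPKM, and the 2 controls were within counting error of each other (ratio 0.951, 95% interval 0.815 to 1.11). The ratio of *Cd79b* to *Cd79a* in a library therefore varied, from 0.810 in control 1 to 1.77 in control 2, with 0.971 and 1.22 in Foxa1/2cKO.

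*Pax5*, the transcription factor that holds B cell identity, was at 2.54, 1.59, 4.06 and 1.79 FPKM. *Ebf1*, which acts upstream of it in B cell development, was at 0.514, 0.290, 0.591 and 0.355 FPKM. Both were low, with both replicate 1 libraries above both replicate 2 libraries. *Blnk*, the adaptor below the B cell receptor, was at 7.33, 4.32, 7.82 and 4.08 FPKM. *Btk*, the kinase that works with it, was at 3.22, 1.45, 2.63 and 1.67 FPKM. The Src family kinase gene *Blk* was at 2.92, 2.17, 4.08 and 1.93 FPKM, so in these signalling genes too the replicate number parted the libraries and the genotype did not.

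Among the surface receptors, *Fcer2a*, the low-affinity IgE receptor CD23, was at 7.42, 4.15, 10.3 and 4.70 FPKM. *Cd22*, an inhibitory receptor, was at 2.21, 1.57, 3.33 and 1.63 FPKM. *Cr2*, a complement receptor of mature B cells, was at 0.226, 0.142, 0.448 and 0.102 FPKM, from at most 30 reads. These receptors are carried by mature B cells. *Vpreb3*, a gene of B cell precursors, had 4, 1, 3 and 1 reads. The scaffold gene *Bank1* and the Fc receptor-like gene *Fcrla* lay between 1.22 and 2.71 FPKM and between 2.81 and 6.38 FPKM, with both replicate 1 libraries above both replicate 2 libraries.

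The fitted difference between genotypes was small beside this spread. The mean in Foxa1/2cKO was the higher one for 10 of the 11 B cell genes tested and the lower one for *Btk*. Their median log2 fold change was 0.23, where the median over all genes tested was 0.01. The highest was that of *Ms4a1*, at 0.36 ± 0.55 (SE, limma, adjusted p = 0.909, n = 2 per group). For *Cd79a* it was 0.32 ± 0.41 (SE, limma, adjusted p = 0.895). All 14 B cell genes overlapped between the genotypes, and the genotypes did not overlap in 36.7% of all genes tested.

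Class II genes were the most abundant of the 39. Their summed level was 509, 274, 585 and 370 FPKM, which was 0.0719%, 0.0391%, 0.0834% and 0.0493% of the reads on listed genes. *Cd74*, the invariant chain that guides class II molecules to the endosome, was at 185, 99.5, 191 and 116 FPKM. *H2-Aa*, the alpha chain of I-A, was at 103, 50.2, 134 and 78.3 FPKM. *H2-Ab1*, its beta chain, was at 80.9, 39.1, 94.1 and 59.2 FPKM, and *H2-Eb1*, the beta chain of I-E, was at 60.3, 31.0, 72.6 and 43.7 FPKM. In each of these 4 genes the order was Foxa1/2cKO 1, control 1, Foxa1/2cKO 2 and control 2, with no genotype apart from the other. *Ciita*, the coactivator that switches class II genes on, was at 6.21, 2.79, 7.20 and 2.99 FPKM. Its ratio of replicate 1 to replicate 2 was 2.23 in control and 2.41 in Foxa1/2cKO, both with a 95% counting interval above 1.

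The peptide-loading genes were lower. *H2-DMa*, the alpha chain of the H2-M peptide editor, was at 15.2, 10.4, 18.9 and 15.4 FPKM. *H2-Ob*, the beta chain of H2-O, which restrains H2-M, was at 12.9, 9.63, 19.8 and 13.6 FPKM. In these 2 genes, and in no other of the 39, both Foxa1/2cKO libraries were above both controls, a pattern that 18.9% of all genes tested showed. The difference was 0.41 ± 0.21 on the log2 scale for *H2-DMa* (SE, limma, adjusted p = 0.863). It was 0.52 ± 0.23 for *H2-Ob*, which had the smallest unadjusted p of the 39 (SE, limma, adjusted p = 0.863). In *H2-DMa* the higher control and the lower Foxa1/2cKO library were 15.2 and 15.4 FPKM, so the groups were barely parted. 10.4% of the exon bases of *H2-DMa* also lie in *Brd2*.

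*H2-Oa*, which pairs with *H2-Ob*, was at 31.3, 22.8, 31.4 and 31.3 FPKM. Only control 2 was lower, and 22.8% of its exon bases also lie in *BC051537*. *H2-DMb2* was at 10.6, 6.28, 13.4 and 7.22 FPKM and followed the common order. *H2-DMb1* was at 2.97, 2.47, 2.89 and 1.97 FPKM, and it was the class II gene with a lower mean in Foxa1/2cKO. *H2-DMb1* and *H2-DMb2* are near-copies that share 27.2% and 30.9% of their 50-base stretches with another gene, the other copy included, so the split of reads between them is uncertain.

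Of the 10 class II genes 9 had a higher mean in Foxa1/2cKO, with a median log2 fold change of 0.31. The classical chains had differences of 0.50 ± 0.43 for *H2-Aa*, 0.40 ± 0.41 for *H2-Ab1* and 0.37 ± 0.39 for *H2-Eb1* (SE, limma, adjusted p from 0.864 to 0.871). Each is of the size of its own standard error in this fit, which had no replicate block.

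Class II promoters carry a set of short elements bound by the RFX, CREB and NF-Y factors, on which *Ciita* is recruited, and the X box and the Y box (an inverted CCAAT) are the best known of them. To show these elements, the promoters of 4 class II genes are printed, which are those of the 7 with a RefSeq promoter that hold both cores. Each is given from 250 bases before to 50 after the gene start in RefSeq on GRCm38.p6, 5′ to 3′ on the strand of the gene. Capitals mark CNNGCAAC, an X-box core, and TGATTGG, a Y-box core. Both spellings were chosen after these sequences had been read, and only the gene's own strand counts for the pair. The regions are chr17:34287774-34288073 on the minus strand for *H2-Aa*, chr17:34305617-34305916 on the plus strand for *H2-Eb1*, chr17:34238655-34238954 on the plus strand for *H2-Ob* and chr17:34092129-34092428 on the plus strand for *H2-Oa*.
H2-Aa: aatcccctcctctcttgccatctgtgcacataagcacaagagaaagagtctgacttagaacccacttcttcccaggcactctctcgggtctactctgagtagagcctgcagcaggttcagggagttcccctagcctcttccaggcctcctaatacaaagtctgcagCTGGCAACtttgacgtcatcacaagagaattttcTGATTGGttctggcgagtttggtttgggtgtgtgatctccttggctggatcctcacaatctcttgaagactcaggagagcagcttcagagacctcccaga
H2-Eb1: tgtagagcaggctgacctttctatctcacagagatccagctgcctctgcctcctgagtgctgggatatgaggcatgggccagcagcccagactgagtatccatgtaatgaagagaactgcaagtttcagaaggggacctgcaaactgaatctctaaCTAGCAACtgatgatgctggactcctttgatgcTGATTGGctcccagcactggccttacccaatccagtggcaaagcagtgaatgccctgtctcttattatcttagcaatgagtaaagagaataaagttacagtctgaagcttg
H2-Ob: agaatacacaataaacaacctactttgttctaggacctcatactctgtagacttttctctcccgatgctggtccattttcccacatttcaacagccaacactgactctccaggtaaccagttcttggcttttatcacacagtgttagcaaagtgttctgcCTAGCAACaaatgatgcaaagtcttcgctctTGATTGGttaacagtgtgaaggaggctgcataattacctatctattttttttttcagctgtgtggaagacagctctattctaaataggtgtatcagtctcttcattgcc
H2-Oa: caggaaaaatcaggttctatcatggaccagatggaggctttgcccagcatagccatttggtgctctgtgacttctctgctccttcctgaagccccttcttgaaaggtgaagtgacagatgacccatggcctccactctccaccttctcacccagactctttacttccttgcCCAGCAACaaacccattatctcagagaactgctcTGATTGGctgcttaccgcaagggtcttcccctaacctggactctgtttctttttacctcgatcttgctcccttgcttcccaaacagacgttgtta
The gap between the 2 cores was 26 bases in *H2-Aa*, 25 in *H2-Eb1*, 23 in *H2-Ob* and 26 in *H2-Oa*. The Y core began 50, 61, 59 and 45 bases before the start. Of 32851 promoters of the same length, 11.2% held CNNGCAAC and 7.82% held TGATTGG on either strand, and the pair in this order on 1 strand, with 15 to 35 bases between, was in 15 (0.0457%). A match is a description of the letters and not a site of binding. The table held promoters of 28 of the 39 genes and of 7 of the 10 class II genes. *H2-DMb1* and *H2-DMb2* held the Y core without the X core, and *H2-DMa* held neither on its own strand.

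The factors named for these elements varied less between the libraries than *Ciita* did. *Rfx5* was at 16.2, 14.6, 15.4 and 14 FPKM and *Rfxap* was at 11.8, 13.3, 13.5 and 13.4 FPKM. *Rfxank* was at 16.5, 16.5, 13.1 and 19.2 FPKM. In the list of 16 genes of class II regulation and antigen processing, 14 were found and tested, none had an unadjusted p under 0.05, and 5 were higher in replicate 1 of both groups. Most of these genes are expressed in many cell types.

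The myeloid genes were of mixed behaviour. Their summed level was 183, 124, 173 and 168 FPKM, in which *Cst3*, an inhibitor of cysteine proteases that is strong in dendritic cells and macrophages but made widely, took the largest part, at 82.6, 70.1, 82.5 and 116 FPKM. *Cst3* was the gene of the 39 that was highest in Foxa1/2cKO 2, with a ratio of 0.710 between the Foxa1/2cKO libraries (95% counting interval 0.642 to 0.785). *Tyrobp*, an adaptor of activating receptors, was at 16.5, 8.07, 16.5 and 15.6 FPKM, so control 2 alone was low. *Fcer1g*, another such adaptor, was at 8.22, 4.48, 8.87 and 4.52 FPKM, in the order of the B cell genes.

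*Mpeg1*, which encodes perforin-2 and is expressed in macrophages and other antigen-presenting cells, was at 9.04, 4.88, 11.1 and 8.21 FPKM. *Siglech*, a receptor of plasmacytoid dendritic cells, was at 5.74, 2.52, 6.65 and 4.36 FPKM. *Lyz2*, lysozyme, was at 13.8, 8.78, 15.2 and 7.08 FPKM, and 15.4% of its 50-base stretches are shared with *Lyz1*. These 3 genes were highest in Foxa1/2cKO 1 as the B cell and class II genes were. The integrin gene *Itgax* (CD11c) was at 1.48, 0.604, 1.61 and 1.16 FPKM. *Itgam* (CD11b) was at 1.61, 1.32, 1.40 and 1.33 FPKM, and 68.7% of its exon bases also lie in *Gm49368*. It differed least between the libraries of the 39.

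The genes of macrophages were ordered otherwise, with control 1 highest and Foxa1/2cKO 2 lowest. *C1qa*, *C1qb* and *C1qc* encode the chains of C1q, which starts the classical complement pathway and is made by tissue macrophages. *C1qa* was at 9.82, 4.77, 6.59 and 0.75 FPKM, from 159, 70, 77 and 9 reads. *C1qb* was at 10.6, 4.85, 6.45 and 2.55 FPKM, from 168, 70, 74 and 30 reads. *C1qc* was at 11.3, 6.22, 7.38 and 2.48 FPKM, from 178, 89, 84 and 29 reads. In all 3 genes Foxa1/2cKO 1 lay between the controls and Foxa1/2cKO 2 lay below them, so the genotypes overlapped. *C1qa* and *C1qc* neighbour each other on chromosome 4 of mm10, at 136895917 to 136898803 and 136889804 to 136893065, with *C1qb* at 136880129 to 136886187.

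*Csf1r*, the receptor for the growth factor of macrophages, was at 2.47, 1.41, 2.15 and 0.675 FPKM. Of its exon bases 15.1% also lie in *Hmgxb3*, and 17.7% of its 50-base stretches are shared with that gene. *Cd68*, an endosomal protein of macrophages, was at 8.09, 5.02, 5.35 and 3.25 FPKM. *Adgre1*, which encodes the macrophage marker F4/80, was at 1.42, 0.499, 0.571 and 0.306 FPKM from at most 69 reads. All 3 were highest in control 1 and lowest in Foxa1/2cKO 2. *Bst1* was at 0.429, 0.788, 0.396 and 0.0386 FPKM, from 15, 25, 10 and 1 reads. It was the gene of the 39 whose Foxa1/2cKO libraries both lay below both controls, which 17.8% of all genes tested did.

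None of these passed the test. The log2 fold change was -1.12 ± 0.76 for *C1qa*, -0.80 ± 0.49 for *C1qc* and -0.68 ± 0.49 for *C1qb* (SE, limma, adjusted p = 0.863 for each). It was -0.51 ± 0.29 for *Cd68* (limma, adjusted p = 0.863) and -0.33 ± 0.38 for *Csf1r* (limma, adjusted p = 0.878). For the 13 myeloid genes tested, the mean in Foxa1/2cKO was higher in 6 and lower in 7, with a median log2 fold change of -0.06. With Foxa1/2cKO 1 left out, *C1qa* (-2.17, adjusted p = 0.00715), *C1qc* (-1.44, adjusted p = 0.0157) and *Cst3* (0.60, adjusted p = 0.00797) passed the limma test, in a fit that called 2695 genes and in which the lone Foxa1/2cKO library is assumed to vary like the controls. With Foxa1/2cKO 2 left out instead, the log2 fold changes were -0.06 for *C1qa*, -0.14 for *C1qb*, -0.17 for *C1qc* and 0.12 for *Cst3*, and none passed. The size of the C1q differences in FPKM thus rested mostly on Foxa1/2cKO 2.

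**Figure D2:**
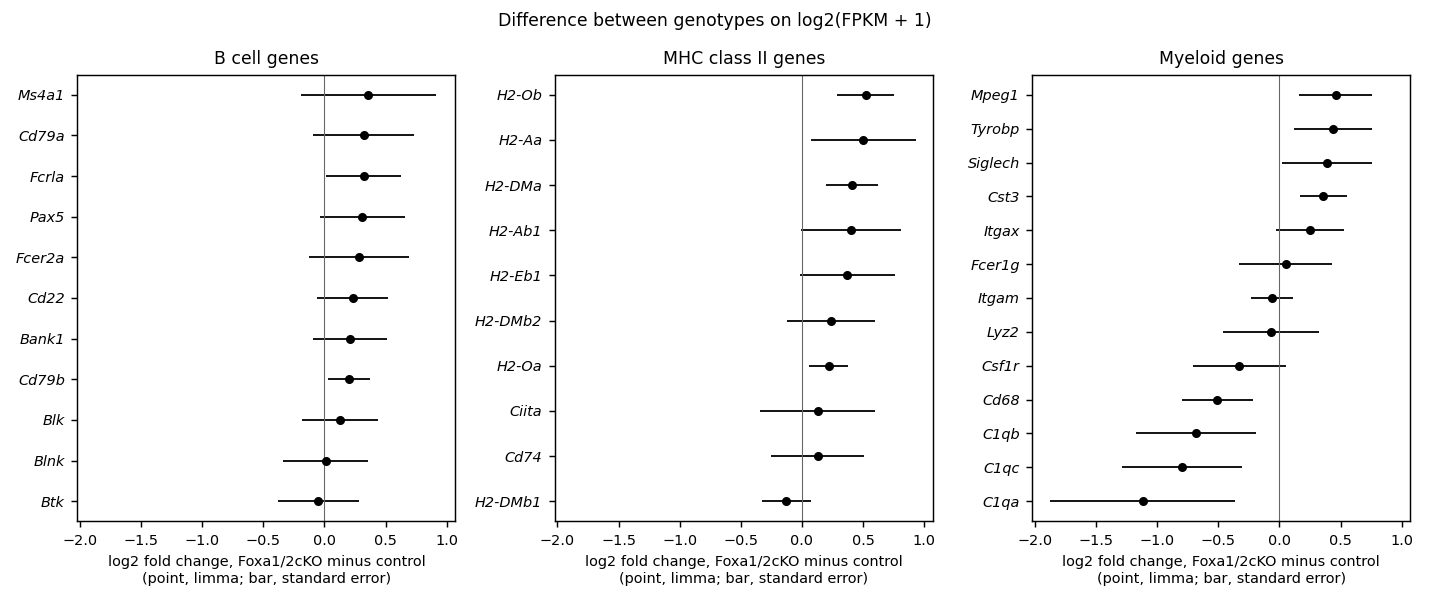
Log2 fold change of Foxa1/2cKO against control on log2(FPKM + 1), with its standard error as a bar, for the 34 genes that passed the filter, fitted with limma over all 10776 genes. The points run from -1.12 for C1qa to 0.52 for H2-Ob, and none passes an adjusted p of 0.05.

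The difference between the libraries of a genotype was the regularity that most of the 39 genes shared. Among the 34 tested, 33 were higher in control 1 than in control 2, as were 47.2% of all genes tested. In Foxa1/2cKO, 33 of the 34 were higher in replicate 1, as were 46.2% of all genes tested. Both held for 32 (94.1%), against 18.6% of all genes tested. The median difference on log2(FPKM + 1) was 0.66 for control 1 over control 2 and 0.72 for Foxa1/2cKO 1 over Foxa1/2cKO 2, where the medians over all genes tested were -0.01 and -0.03.

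The size of these differences was well above counting error in most of the 39. A difference of over 1.5 times was seen between the controls in 24 of the 34 tested, against 2.33% of all genes tested, and between the Foxa1/2cKO libraries in 24, against 11.9%. It was seen in both groups in 21 of the 34 (61.8%), against 1.38% of all genes tested. The counting interval of the ratio lay above 1 for 30 of the 39 genes in the controls and for 30 in Foxa1/2cKO, and below 1 for *Cst3* in Foxa1/2cKO. The median ratio of replicate 1 to replicate 2 over the 39 genes was 1.77 in control and 1.72 in Foxa1/2cKO. *Cd79b* and *Bst1* were higher in control 2, and *Cst3* was higher in Foxa1/2cKO 2.

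**Figure D3:**
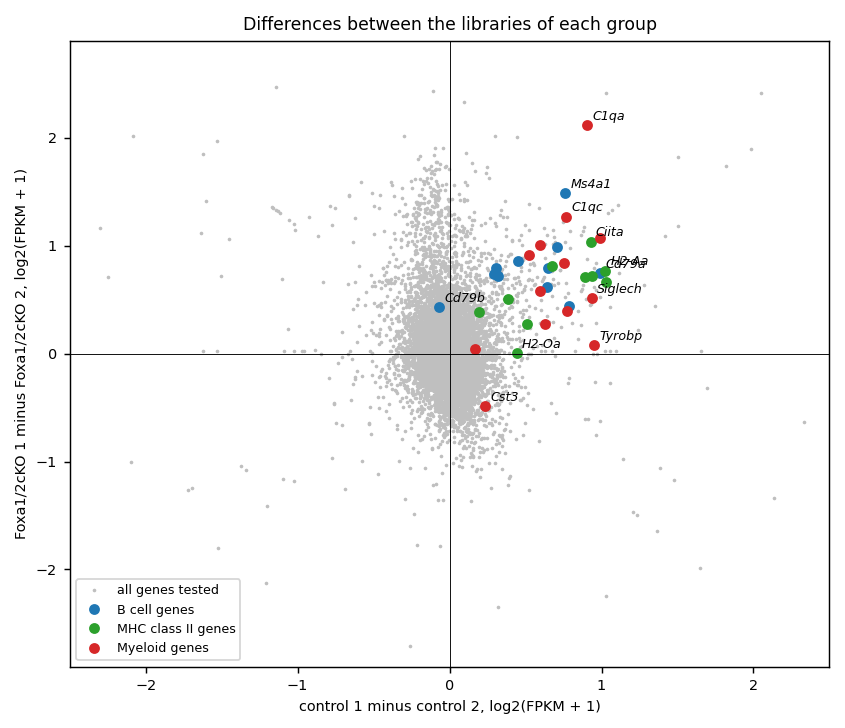
Difference between the 2 control libraries (x axis) and between the 2 Foxa1/2cKO libraries (y axis) on log2(FPKM + 1), for all 10776 genes tested in grey and for the B cell, class II and myeloid genes among them in colour. Of the 34 coloured points 32 lie above 0 on both axes, and Cd79b and Cst3 lie outside it.

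Other lists of genes give the surroundings of this order. Of the 19 further B cell genes tested, 14 were higher in replicate 1 of both groups, as were 11 of 15 further myeloid genes and 8 of 11 dendritic cell genes. The number was 3 of 5 NK cell genes, 1 of 4 thymic epithelial genes and 0 of 1 erythroid gene tested. Among the 18 T lineage and DP genes it was 0, and their summed level was 7020, 6930, 6540 and 8740 FPKM. *Cd4* was at 342, 352, 345 and 446 FPKM and *Cd8a* was at 487, 495, 475 and 666 FPKM. So Foxa1/2cKO 2, the lowest library in 14 of the 39 genes, was the library highest in the coreceptor genes. Control 2 was the lowest in 24 of the 39, and its T lineage sum was 6930 FPKM beside 7020 in control 1. Whether the higher coreceptor level in Foxa1/2cKO 2 has a part in the order of the 39 genes was not tested.

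*Jchain*, the joining chain of secreted antibodies in plasma cells, was the gene of the further lists with an unadjusted p under 0.05 and genotypes that did not overlap. It was at 6.52, 5.05, 10.1 and 7.72 FPKM, with a log2 fold change of 0.55 ± 0.18 (SE, limma, adjusted p = 0.863). No list had a gene called after adjustment.

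Because the B cell genes varied together between libraries, each other gene was also set against them within its own library, a measure that does not depend on scaling between libraries. It was chosen after the values had been seen, and the denominator was the summed FPKM of 13 B cell genes, without *Cd79b*. The C1q genes then parted the genotypes. Their summed level relative to the B cell sum was 0.465 and 0.425 in control, against 0.231 and 0.133 in Foxa1/2cKO. As reads, there were 25.3 C1q reads per 100 B cell reads in control 1 (95% counting interval 22.9 to 27.9) and 22.3 in control 2 (19.2 to 25.8). There were 12.3 in Foxa1/2cKO 1 (10.7 to 14.1) and 7.25 in Foxa1/2cKO 2 (5.58 to 9.28). The intervals of the controls overlapped, and those of the Foxa1/2cKO libraries lay below them and apart from each other.

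Of the 26 genes outside the denominator, 9 were lower against the B cell genes in both Foxa1/2cKO libraries than in both controls. On the same measure 0 were higher. The denominator itself leaned by genotype: the summed level of all 14 B cell genes was 1.23 times as high in Foxa1/2cKO, by group means. Division by such a sum lowers the Foxa1/2cKO values of any gene on average, so the 2 directions are not on a par. Of all genes tested, 7.81% were lower and 0.334% were higher (8.15% in either direction). These shares are not a like base, because a gene that is level across the libraries overlaps once divided by the B cell sum. The replicate difference of that sum was shared by 94.1% of the 34 members tested and by 18.6% of all genes tested. *Adgre1* and *Bst1* were not among the genes tested. All 9 were myeloid genes: *C1qa*, *C1qb*, *C1qc*, *Csf1r*, *Adgre1*, *Cd68*, *Lyz2*, *Fcer1g* and *Bst1*. Among the 13 B cell genes that make up the denominator, *Blnk* (12.1, 13.1, 9.68 and 10.4 per 100 FPKM) and *Btk* (4.96, 4.06, 3.06 and 4.02) were lower in both Foxa1/2cKO libraries too. The ratio of the group means was 0.798 for *Blnk* and 0.785 for *Btk*, beside 0.765 for *Lyz2* and 0.849 for *Fcer1g*. Per 100 FPKM of the B cell genes, *Csf1r* was at 3.62, 3.77, 2.43 and 1.56. *Cd68* was at 11.9, 13.5, 6.04 and 7.52, and *Adgre1* was at 2.09, 1.34, 0.644 and 0.706. In *Fcer1g*, at 12.1, 12, 10 and 10.4, the groups were close, and in *Lyz2* they were at 20.3, 23.6, 17.2 and 16.4.

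The class II genes and the dendritic cell gene *Siglech* did not part the genotypes when set against the B cell genes. Not all of them kept a steady level against these. *H2-Oa* was at 46.0, 61.2, 35.5 and 72.3 per 100 FPKM of the B cell genes. For *H2-DMb1* the ratio of the group means was 0.711. *H2-Aa* was at 152, 135, 151 and 181 per 100 FPKM of the B cell genes, and *Cd74* was at 272, 267, 215 and 268. *Siglech* was at 8.43, 6.76, 7.50 and 10.1 and *Mpeg1* was at 13.3, 13.1, 12.6 and 19.0. All 10 class II genes overlapped between the genotypes on this measure. Against each of the 36 other genes of the 39 as denominator, the summed C1q level of both Foxa1/2cKO libraries was below that of both controls for 30 and overlapped for 6. The share of all genes that part the genotypes as denominator was not computed, so 30 of 36 has no base beside it. The ratios all share the C1q sum, and most denominators varied together between libraries, so they are not separate observations on this measure. With 2 libraries in each group an exact two-sided permutation test cannot give a p under 0.333, and this measure, chosen after its values were seen, was given no test.

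**Figure D4:**
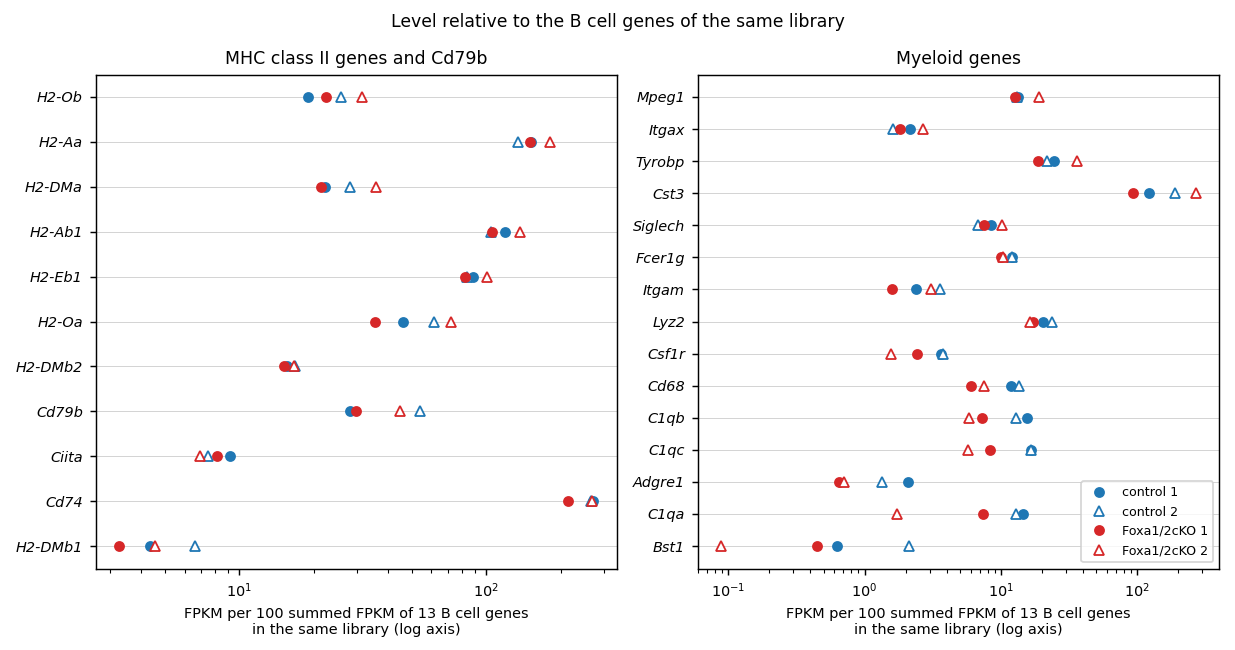
Level of each class II gene, Cd79b and each myeloid gene per 100 summed FPKM of 13 B cell genes in the same library (log axis), with control in blue, Foxa1/2cKO in red, replicate 1 as filled circles and replicate 2 as open triangles. Both red points lie left of both blue points for 9 myeloid genes, C1qa, C1qb and C1qc among them, and for none of the class II genes.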

How the data were processed

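RNA of FACS-sorted CD69+DP thymocytes was sequenced on an Illumina NextSeq instrument, in 2 control and 2 Foxa1/2cKO samples. The authors aligned reads to UCSC mm10 with RefSeq genes in BaseSpace and counted reads per gene with HTSeq (union mode), and the submitters' processing notes list TopHat, Picard and DESeq2. The deposited values are FPKM per gene and sample, and the tool that made them is not given in the sources used here. Groups follow the samples' labels, and p-values measure the spread between these samples.

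The FPKM of a gene rise in steps of 1 read, which gave back whole reads for 100% of 16069 genes, up to a common divisor. Of 10222 genes over 50 reads, 97.1% then had a whole length. The reads of *C1qb* were multiplied by use of its annotated length. Counting intervals are at 95% and cover counting error only.

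Differences between genotypes were fitted with limma 3.58.1 in R 4.3.3 on log2(FPKM + 1), which understates the change of low genes, with a mean-variance trend, for genes of at least 1 FPKM in at least 2 samples, with Benjamini-Hochberg adjustment at 0.05 over 10776 genes. The fit had 2 residual and 2.69 prior degrees of freedom, and was tested on simulated data. Alternatives were a pseudocount of 0.1, no filter, 2 other scalings, a replicate block, a threshold of 0.1, limma-voom on recovered reads (at least 10 in at least 2 samples), which called 0 genes, and leaving out each sample. Overlaps and shared 50-base stretches come from GENCODE on GRCm38, and promoters from RefSeq. Python 3.11.15, pandas 2.3.3 and scipy 1.17.1 were used.

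The members and lists were chosen with earlier results of these data known. From lists of further B cell, class II processing, myeloid, dendritic, T lineage, erythroid, thymic epithelial and NK cell genes, the text names the genes that define the sort and those with an unadjusted p under 0.05 whose groups do not overlap. Other genes named from these lists were chosen after their values were seen, and 1 gene of these lists is not reported here.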

Additional observations from a re-analysis of the deposited data

How the results depend on the processing

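No gene of the 39 was called with a pseudocount of 0.1, without a filter on low values, with upper-quartile scaling, with scaling to all recovered reads, with limma-voom on recovered reads, with a replicate block or at a threshold of 0.1. Over all genes the number called was 1, and it was 0 with the pseudocount of 0.1, without the filter, with scaling to all recovered reads and with limma-voom. With a library left out it was 0 to 2695 over all genes, 24 without Foxa1/2cKO replicate 2 and 2695 without Foxa1/2cKO replicate 1, and 0 to 3 among the 39. The log2 fold change of *Blnk*, 0.01, was -0.00 with upper-quartile scaling, -0.02 with scaling to all recovered reads and -0.01 with limma-voom, and its direction is not known. Leaving out 1 library at a time turned the sign of 24 of the 34 fold changes. Their lowest and highest values were *Cd79a* -0.18 to 0.82, *Cd79b* -0.02 to 0.41, *Ms4a1* -0.39 to 1.10, *Pax5* -0.12 to 0.74, *Cd22* -0.12 to 0.59, *Blk* -0.27 to 0.53, *Blnk* -0.39 to 0.41, *Btk* -0.44 to 0.34, *Bank1* -0.16 to 0.58, *Fcer2a* -0.21 to 0.77, *Cd74* -0.31 to 0.58, *Ciita* -0.39 to 0.65, *H2-Aa* -0.01 to 1.02, *H2-Ab1* -0.11 to 0.91, *H2-Eb1* -0.09 to 0.84, *H2-DMb1* -0.32 to 0.07, *H2-DMb2* -0.16 to 0.65, *Lyz2* -0.58 to 0.43, *Itgam* -0.14 to 0.03, *Itgax* -0.06 to 0.57, *Csf1r* -0.79 to 0.13, *Fcer1g* -0.36 to 0.47, *Tyrobp* -0.04 to 0.91 and *Siglech* -0.07 to 0.86. The other 10 did not change sign, but the log2 fold change of each moved by over 1.5 times: *Fcrla* 0.00 to 0.64, *H2-DMa* 0.16 to 0.66, *H2-Oa* 0.00 to 0.44, *H2-Ob* 0.27 to 0.77, *Cd68* -0.81 to -0.21, *Cst3* 0.12 to 0.60, *C1qa* -2.17 to -0.06, *C1qb* -1.21 to -0.14, *C1qc* -1.44 to -0.17 and *Mpeg1* 0.07 to 0.85. The log2 ratio of the summed level ranged from -0.21 to 0.67 in the B cell genes, from -0.09 to 0.80 in the class II genes and from -0.10 to 0.46 in the myeloid genes.

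The replicate numbers are not said to pair the samples, and the deviations of same-numbered samples had a correlation of -0.059 over 10776 genes. With the replicate block, 6 of the 34 tested had an unadjusted p under 0.05 with a higher mean in Foxa1/2cKO, and 4 with a lower mean. In either direction 3.51% of all genes tested did. The 6 were *H2-Aa*, *H2-Ab1*, *H2-Eb1*, *H2-DMa*, *H2-Ob* and *Mpeg1*, and the 4 were *C1qa*, *C1qb*, *C1qc* and *Cd68*. The standard errors of *H2-Aa*, *H2-Ab1* and *H2-Eb1* were 0.14, 0.15 and 0.14 with the block. The smallest adjusted p of the 34 was 0.998 (limma), and 1 gene in all was called. The count of 36 genes higher in replicate 1 of both groups was 36 with upper-quartile scaling and 36 with scaling to all recovered reads. The log2 ratio of the C1q genes over the B cell genes, Foxa1/2cKO against control, was -1.29. It lay between -1.42 and -1.24 over *Cd79a*, *Ms4a1*, *Siglech*, all 14 B cell genes or the class II genes, and between -1.74 and -0.95 with a library left out. Both of these were chosen after seeing the data. Depth limits *Vpreb3*, *Bst1* and *Cr2*, which had 1 to 7 reads in the library that held fewest, and 14 of the 39 had 100 or more reads in every library. With 2 samples a group, the 95% interval of each of the 34 fold changes includes 0 in the main fit, which had no replicate block.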

Other observations

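Further genes of tissue macrophages, chosen after their values were seen, were also lower against the B cell genes in both Foxa1/2cKO libraries than in both controls. *Mrc1*, the mannose receptor, had 109, 50, 51 and 7 reads in control 1, control 2, Foxa1/2cKO 1 and Foxa1/2cKO 2, which per 100 FPKM of the B cell genes was 2.01, 1.86, 1 and 0.274. *Timd4*, a receptor for dying cells, was at 0.993, 1.45, 0.673 and 0.192 on the same measure, from at most 22 reads. *Mertk*, a receptor kinase for the uptake of dying cells, was at 0.690, 0.778, 0.382 and 0, with 0 reads in Foxa1/2cKO 2, a count that allows up to 3. *Axl*, its relative, was at 10.5, 15.6, 6.77 and 9.18, with 544, 402, 329 and 224 reads. *Clec7a* was at 1.89, 2.43, 0.826 and 0.823, from 44, 28, 18 and 9 reads. *Fcgr1* was at 0.417, 0.458, 0.283 and 0.0804, from only 11, 6, 7 and 1 reads. Of these further genes only *Axl* passed the filter on low values.

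*Xcr1* and *Clec9a*, which define cross-presenting dendritic cells, lay at or below 0.081 and 0.0562 FPKM in the 4 libraries. *Igll1*, of B cell precursors, was listed at 0 in all 4. *Vpreb1*, also of B cell precursors, had 14, 8, 7 and 14 reads and was highest in Foxa1/2cKO 2. *Tnfrsf17*, of plasma cells, had 2, 0, 2 and 0 reads, too few to order the libraries, and *Jchain* had 205, 144, 230 and 180 reads. *Klk1* had the highest fold change of the dendritic cell list, at 1.23 on the log2 scale, which did not pass the test, with 2.14, 0.420, 2.54 and 5.97 FPKM. *Ctsl*, a cathepsin of thymic epithelium and other cells, was at 39.3, 35.8, 41.8 and 65.7 FPKM, highest in Foxa1/2cKO 2 as *Cst3* was.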
